A study of Homo sapiens with 6 samples.

Results

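The mitochondrial chaperones and proteases considered here are 10 nuclear genes, HSPD1, HSPE1, HSPA9, TRAP1, GRPEL1, LONP1, CLPP, CLPX, AFG3L2 and YME1L1, of the 30270 genes in the count table. They were chosen by gene symbol, for the function of their proteins, with earlier results of these data known. All 10 passed the filter on low counts. RNA came from HEK 293T cells, an immortalised human embryonic kidney line, grown without treatment. WT cells (3 libraries) were compared with 1 TENT3A/B double knockout line (3 libraries), called ΔTUT4/7 here after the other names of the deleted uridylyltransferases. Libraries were made from total RNA after ribosomal RNA reduction and held between 18757228 and 33148937 estimated counts. Each group is 1 line with 3 biological replicates, so p-values measure the spread between cultures of a line and not between independently made knockouts. The authors obtained HEK 293T cells from a repository and received the knockout line, made and published earlier, as a gift. Whether these WT cells are its parent was not stated. Differences of cell stock and of genotype therefore cannot be told apart.

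The libraries labelled ΔTUT4/7 did not show a loss of both target mRNAs. TUT7 was lower (log2 fold change -1.25 ± 0.06, SE) and TUT4 was higher (2.10 ± 0.04), and a count over the whole gene cannot show whether an intact transcript is made. Directions below are therefore those of the libraries labelled ΔTUT4/7 over WT. Of 6 markers fixed for the HEK 293T lineage, 5 exceeded 1 CPM (counts scaled by TMM and library total) in every library, and EPCAM had no counts in the libraries labelled ΔTUT4/7, under a floor of 3 counts per group. The summed level of these 6 ran from 72.4 to 75.9 CPM in WT and from 111 to 112 CPM in ΔTUT4/7, with CDH2 (26.5 and 60.2 CPM) and KRT18 (30.5 and 44.3) higher and KRT8 (9.96 and 3.43), LHX1 (3.91 and 1.96) and PAX2 (2.15 and 1.453) lower on average. Of the 6 markers of leukocytes, endothelium and fibroblasts analysed here, CD14, PECAM1 and VWF were near 0, and the summed level, mostly COL1A1, ran from 23.1 to 27.8 CPM in WT and from 10.9 to 14.3 CPM in ΔTUT4/7. Whether these differences have a part in the results was not tested.

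Most mitochondrial proteins are made in the cytosol and cross the mitochondrial membranes unfolded. In the matrix, mtHSP70 (HSPA9) pulls them in and holds them, with GRPEL1 exchanging its nucleotide, and the HSP60 chaperonin (HSPD1) closed by its HSP10 lid (HSPE1) gives them a chamber to fold in. TRAP1 is the mitochondrial member of the HSP90 family. Proteins that fail are removed by ATP-dependent proteases: LONP1 and the CLPX-CLPP pair in the matrix, and in the inner membrane the m-AAA protease, with AFG3L2 facing the matrix, and the i-AAA protease YME1L1, facing the intermembrane space. Several of these genes are known to be induced when unfolded proteins accumulate in mitochondria.

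HSPD1 and HSPE1 are transcribed away from each other from a shared control region, so their promoters are shown first. The windows are those of RefSeq (GRCh38.p14), 250 bases before to 50 after each annotated start. RefSeq windows were at hand for 7 of the 10 genes, not for GRPEL1, CLPP and YME1L1. The HSPE1 start lies 105 bases from the nearer HSPD1 start, on the opposite strand, and their windows overlap by 204 bases. A second HSPD1 start lies 539 bases from that of HSPE1. The sequences below are HSPE1 (chr2:197500129-197500428, plus strand), the window of the second HSPD1 start (chr2:197499791-197500090, minus strand), HSPA9 (chr5:138575352-138575651, minus strand) and LONP1 (chr19:5720097-5720396, minus strand). They hold the heat shock and E-box matches described next, at the divergent gene pair, at HSPA9, whose mRNA rose by a similar factor, and at LONP1, whose mRNA was not called. Capitals mark motif matches.
HSPE1: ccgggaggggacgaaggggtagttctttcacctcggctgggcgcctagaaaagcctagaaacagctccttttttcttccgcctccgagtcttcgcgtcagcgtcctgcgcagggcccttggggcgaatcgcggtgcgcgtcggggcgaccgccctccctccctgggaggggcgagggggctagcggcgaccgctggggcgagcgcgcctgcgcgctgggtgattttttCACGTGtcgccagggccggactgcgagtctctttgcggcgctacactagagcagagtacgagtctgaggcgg
HSPD1: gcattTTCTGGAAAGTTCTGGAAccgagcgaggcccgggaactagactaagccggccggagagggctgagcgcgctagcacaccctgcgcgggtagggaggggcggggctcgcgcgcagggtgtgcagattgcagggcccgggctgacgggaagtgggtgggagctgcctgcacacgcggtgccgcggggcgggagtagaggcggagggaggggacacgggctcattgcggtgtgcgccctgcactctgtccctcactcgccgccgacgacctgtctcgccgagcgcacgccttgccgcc
HSPA9: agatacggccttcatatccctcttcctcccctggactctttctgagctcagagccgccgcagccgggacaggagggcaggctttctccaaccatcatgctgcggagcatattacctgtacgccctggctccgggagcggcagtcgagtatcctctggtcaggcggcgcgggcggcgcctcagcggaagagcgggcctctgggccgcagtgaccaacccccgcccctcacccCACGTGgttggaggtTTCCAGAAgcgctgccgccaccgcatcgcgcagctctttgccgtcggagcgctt
LONP1: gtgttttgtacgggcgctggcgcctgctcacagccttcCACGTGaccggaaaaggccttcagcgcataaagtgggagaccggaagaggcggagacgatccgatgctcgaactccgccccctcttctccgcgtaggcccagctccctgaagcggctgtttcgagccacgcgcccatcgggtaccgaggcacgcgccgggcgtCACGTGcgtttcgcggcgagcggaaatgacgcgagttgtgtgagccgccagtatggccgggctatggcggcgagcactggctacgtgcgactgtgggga

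Motifs were chosen after the sequences were viewed and were searched as exact letters on both strands. A heat shock element was read as inverted units, GAANNTTC or TTCNNGAA. This 2-unit form was in 13.5% of 35116 RefSeq promoter windows, and among the members in the second HSPD1 window and in that of HSPA9. The 3-unit form, GAANNTTCNNGAA or TTCNNGAANNTTC, which contains the 2-unit form, was in 0.490% of all windows and, among the members, only in that HSPD1 window, where overlapping matches filled bases 197500068 to 197500085 of chromosome 2. These matches begin at -311 bases from the HSPE1 start, and the HSPE1 window begins at -250. Their absence from the HSPE1 window thus follows from where that window was cut. The E-box CACGTG, a binding motif of MYC and related factors, was in 7.26% of windows. It lay in the overlap of the HSPE1 and nearer HSPD1 windows (bases 197500357 to 197500362), in the HSPA9 window and at 2 places in the LONP1 window shown. The NRF1 core CGCATGCG (2.02% of windows) was in the other LONP1 window, the cyclic AMP element TGACGTCA (1.85%) in that of TRAP1, and the ETS motif CCGGAAGT (4.14%) in none of the 9 member windows. E-boxes stood at HSPD1, HSPE1 and HSPA9, whose mRNA rose, and at LONP1, whose mRNA was not called. None was in the windows of TRAP1, CLPX and AFG3L2, whose mRNA also rose. A link between motifs and mRNA changes was not tested. A match describes letters and is not a measured site.

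**Figure D1:**
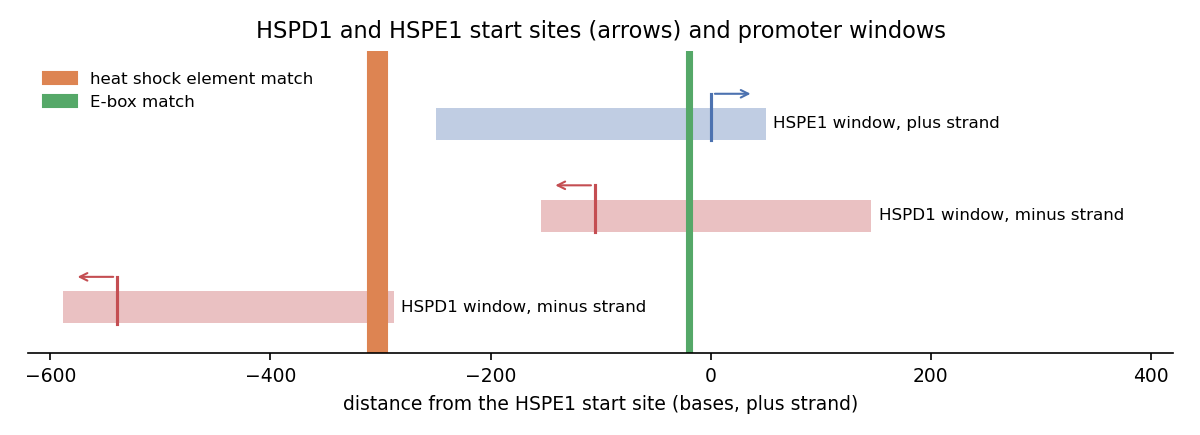
Start sites (arrows) and RefSeq promoter windows (bars, 300 bases each) of HSPE1 and HSPD1, in bases from the HSPE1 start along the plus strand. The E-box match lies 22 bases before the HSPE1 start, in the 204 bases that the upper pair of windows share, and the heat shock element matches lie in the lower HSPD1 window.

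To find out whether mRNAs for the mitochondrial folding and degradation machines differed between the cells, each member was read from a test over all 23952 genes that passed the filter. Of the 10 members, 9 were higher in ΔTUT4/7 at an FDR under 0.05 and none was lower. Over all tested genes, 28.6% were called higher, 29.0% lower and 57.7% in either direction. Among the 15575 genes with at least 50 counts on average, to which all members belong, 39.2% were higher and 31.7% lower. For the same 9 members, every ΔTUT4/7 library lay above every WT library, as it did for 30.9% of all tested genes, while the reverse held for none of the members and 31.8% of all tested genes. HSPE1, HSPA9 and YME1L1 were called and rose by 2-fold or more, as did 5.90% of tested genes, and HSPD1 stood just under that. This count of 3 fell to 0 under library-size scaling, in limma and with a minimum mean count of 50, and to 1 without WT replicate 1 or ΔTUT4/7 replicate 2. The median log2 fold change was 0.75 over the members and -0.02 over all tested genes, and 0.06 over those 15575 genes. The 5 chaperones and co-chaperones had a median of 0.96 (range 0.74 to 1.02). The 5 genes of the proteolytic machines had a median of 0.47 and a wider range, from -0.06 for LONP1 to 1.01 for YME1L1. Replicates were close, with a coefficient of variation of 2.27% to 13.8% in WT and 0.298% to 8.80% in ΔTUT4/7.

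**Figure D2:**
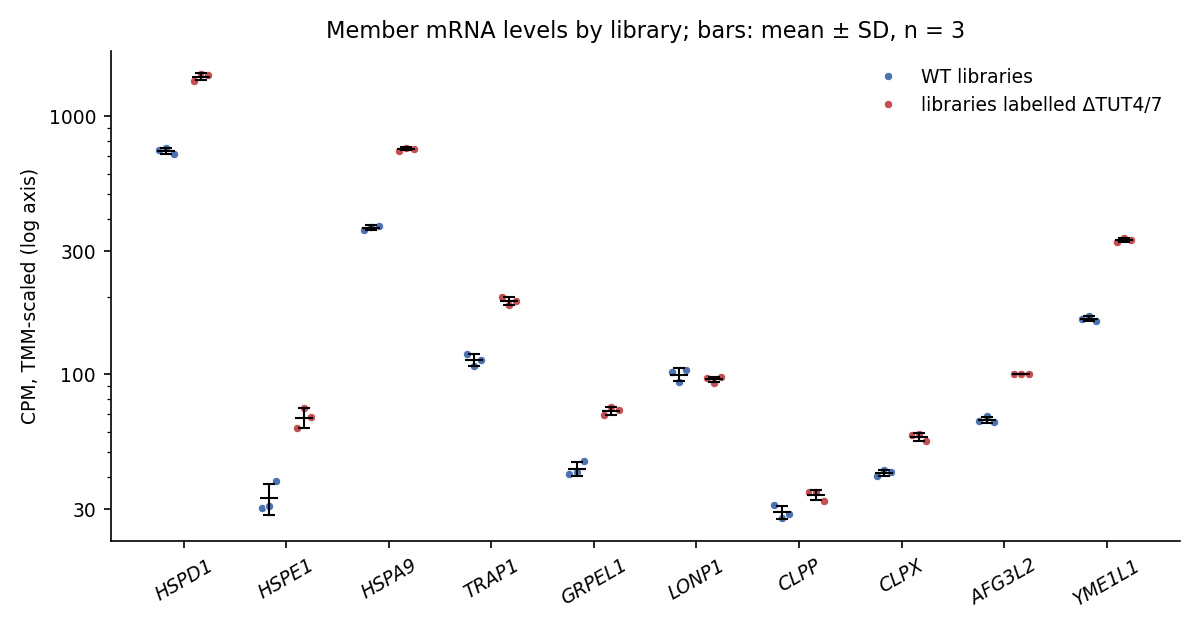
CPM (TMM-scaled, log axis) of the 10 members in each of 3 WT and 3 ΔTUT4/7 libraries, with bars for mean ± SD. The groups are apart for 9 genes and overlap for LONP1, at 99.7 and 95.6 CPM.

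HSPD1 (chromosome 2, 197486584 to 197516737) and HSPE1 (chromosome 2, 197500140 to 197503449) encode the chaperonin and its lid. HSPD1 had 739, 754 and 715 CPM in the WT libraries and 1375, 1459 and 1448 CPM in those of ΔTUT4/7. HSPE1 had 30.3, 30.8 and 38.4 CPM in WT and 61.9, 73.9 and 68.3 CPM in ΔTUT4/7. For both genes the lowest ΔTUT4/7 library was well above the highest WT library, and WT replicate 3 stood above the other WT libraries for HSPE1 alone. The log2 fold change was 0.96 ± 0.04 (SE) for HSPD1 and 1.02 ± 0.10 for HSPE1, with adjusted p of 6.45e-14 and 3.88e-06 in edgeR. Without WT replicate 3, HSPE1 changed by 1.14. The 47 expressed genes within 5 Mb of this pair had a median of -0.03. In the annotation of the count table, HSPE1 lies within the span of HSPD1 on the opposite strand. Whether counting used strand was not given in the sources used here, so reads from where these genes overlap cannot be assigned with certainty.

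The counts of HSPD1 and HSPE1 are also uncertain because processed pseudogenes, copies of their mRNA elsewhere in the genome, can take a part of the reads in the authors' model. The 10 HSPD1 pseudogene rows held 19.3% of HSPD1's own count in WT and 18.3% in ΔTUT4/7. The 13 HSPE1 pseudogene rows held as much as HSPE1 itself, 109% of its count in WT and 102.2% in ΔTUT4/7. HSPE1P3 alone had 25.5 ± 4.09 CPM (SD, n = 3) in WT and 54.1 ± 10.6 CPM in ΔTUT4/7. With pseudogene rows added to the parent gene, HSPE1 went from 69.3 ± 10.8 to 137 ± 14.4 CPM. Its log2 fold change was then 0.98 (adjusted p 0.00217), and HSPD1 went from 879 ± 24.2 to 1687 ± 48.2 CPM. The fold change was thus nearly the same with the rows added, while the level of HSPE1 about doubled.

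HSPA9 (chromosome 5, 138553756 to 138575675), the mtHSP70, had 361, 373 and 378 CPM in WT and 737, 757 and 750.4 CPM in ΔTUT4/7. GRPEL1 (chromosome 4, 7058895 to 7068064), its exchange factor, had 40.9, 42.0 and 46.2 CPM in WT and 69.6, 74.5 and 72.5 CPM in ΔTUT4/7. The groups were far apart for both, and the fitted change was larger for the chaperone than for its co-factor. The log2 fold change was 1.01 ± 0.04 for HSPA9 and 0.74 ± 0.06 for GRPEL1 (adjusted p 1.44e-14 and 5.73e-10 in edgeR). TRAP1 (chromosome 16, 3651639 to 3717553) had 120.2, 108 and 113 CPM in WT and 199, 186 and 193 CPM in ΔTUT4/7, with no overlap. Its log2 fold change was 0.76 ± 0.05 (adjusted p 1.77e-11). The 162 expressed genes within 5 Mb of TRAP1 had a median of 0.41, and with that subtracted the change of TRAP1 was 0.35. The part of position in the TRAP1 result was not tested further. Of the genes that overlap TRAP1, DNASE1 on the opposite strand fell by 0.29 ± 0.06 on the log2 scale, and AC006111.2 on the same strand rose by 1.26 ± 0.20 from a low level (1.73 CPM in WT).

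Among the matrix proteases, CLPP and its unfoldase CLPX were called higher and LONP1 was not called. LONP1 (chromosome 19, 5691834 to 5720572), the Lon protease, had 101.8, 93.2 and 104 CPM in WT and 96.7, 92.7 and 97.3 CPM in ΔTUT4/7, and the groups overlapped. Its log2 fold change was -0.06 ± 0.05 (95% interval -0.17 to 0.05, adjusted p 0.330), so a rise like that of HSPD1 lay outside the interval. RPL36, which overlaps its end on the opposite strand, had a change of 0.15 ± 0.22 (adjusted p 0.603). LONP1 was called lower under library-size scaling (-0.18), in limma on log2(CPM + 1) (-0.17), with a minimum mean count of 50 (-0.12) and with a GC and length offset (-0.23). CLPP (chromosome 19, 6361531 to 6370242), the peptidase, had 31.1, 27.7 and 28.8 CPM in WT and 35.1, 35.1 and 32.3 CPM in ΔTUT4/7. The groups came close without overlapping, and the log2 fold change was 0.23 ± 0.07 (adjusted p 0.00716). CLPP was no longer called when scaled by library size (0.11), in limma (0.11) and with the GC and length offset (0.08). CLPX (chromosome 15, 65148219 to 65185342), the unfoldase that feeds CLPP, had 40.4, 42.6 and 41.7 CPM in WT and 58.3, 59.0 and 55.1 CPM in ΔTUT4/7, clearly apart. Its log2 fold change was 0.47 ± 0.06 (adjusted p 4.20e-07).

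Both membrane-bound AAA proteases rose, and YME1L1 had the larger fitted change. YME1L1 (chromosome 10, 27110111 to 27155266) had 164, 169 and 161 CPM in WT and 326, 339 and 331 CPM in ΔTUT4/7, about double in every library. AFG3L2 (chromosome 18, 12328944 to 12377227) had 65.8, 68.9 and 65.4 CPM in WT and 101, 100.5 and 100.2 CPM in ΔTUT4/7. The log2 fold changes were 1.01 ± 0.04 and 0.59 ± 0.05 (adjusted p 2.19e-14 and 1.03e-09 in edgeR). The 38 expressed genes within 5 Mb of YME1L1 had a median of 0.35, and with it subtracted the change was 0.66. Genes on the opposite strand overlap both, and these went up by 0.48 ± 0.06 for TUBB6 at AFG3L2 and down by 0.13 ± 0.05 on the log2 scale for MASTL at YME1L1. Whether counting used strand was not given in the sources used here, so reads in the overlaps cannot be told apart.

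**Figure D3:**
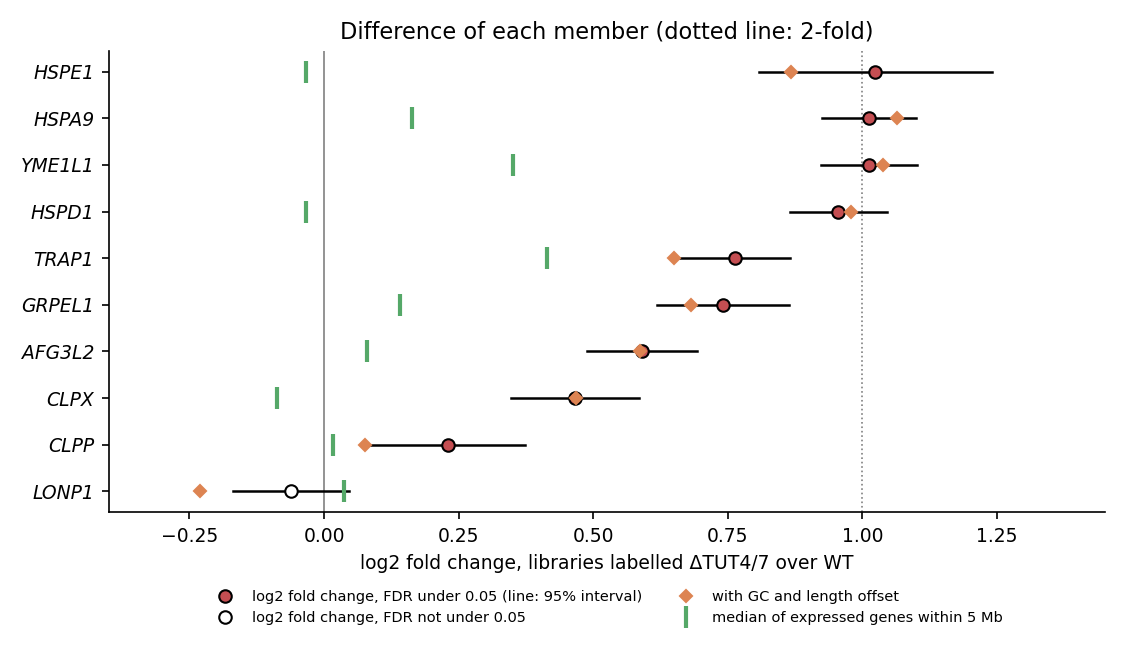
Log2 fold change (ΔTUT4/7 over WT) of each member with its 95% interval as a line. Diamonds show the value with a GC and length offset, and ticks the median of expressed genes within 5 Mb, which lay below the member's value for every gene but LONP1 and reached 0.41 at TRAP1.

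Levels of different genes were compared per kilobase of exon, as CPM divided by the summed exon length of all annotated transcripts, which understates genes with long rare exons. HSPD1 stood first at 96.5 ± 2.60 CPM per kb in WT, followed by HSPA9 at 37.9 ± 0.859. YME1L1 (22.4 ± 0.550) and TRAP1 (21.9 ± 1.21) overlapped, as did LONP1 (19.8 ± 1.14) and HSPE1 (18.2 ± 2.51). AFG3L2 followed at 9.35 ± 0.267. CLPP, GRPEL1 and CLPX came last, between 7.61 and 8.28, and neighbours among these overlapped. With its pseudogene rows added, HSPE1 had 38.0 CPM per kb in WT, near the level of HSPA9. In ΔTUT4/7, HSPD1 had 187 ± 5.97 and HSPA9 76.5 ± 1.05 CPM per kb. LONP1 (19.0 ± 0.497) was then below HSPE1 (37.3 ± 3.28) and TRAP1 (37.2 ± 1.21), whose libraries overlapped, and CLPP (9.67 ± 0.447) was last. HSPD1 and HSPA9 together made up 64.6% to 66.0% of the members' summed CPM in WT libraries and 69.0% to 69.8% in those of ΔTUT4/7. The sum over the 5 chaperones and co-chaperones went from 1297 ± 9.94 to 2508 ± 57.9 CPM, and that over the 5 proteolytic genes from 402 ± 1.27 to 619 ± 5.58 CPM.

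Several members act as partners, and the ratio of partner counts within a library does not depend on library scaling, though it can move with GC content and length. For 6 such ratios, log2 values were compared with a two-sided exact permutation test, which with 3 against 3 libraries cannot give a p under 0.10. HSPD1 to HSPE1 was 22.5 ± 3.37 in WT and 21.1 ± 1.23 in ΔTUT4/7, with overlapping libraries (p = 0.60, adjusted 0.60, exact permutation). The level of this ratio is uncertain, because HSPE1 pseudogene rows held 109% of its count in WT and 102.2% in ΔTUT4/7. The other 5 ratios did not overlap between the groups, each at the smallest possible p of 0.10 (adjusted 0.12, exact permutation). Of single genes, 30.9% of all tested were higher and 31.8% lower without overlap. The share for ratios of other gene pairs was not computed. HSPA9 to GRPEL1 was 8.63 ± 0.400 in WT and 10.4 ± 0.215 in ΔTUT4/7. CLPX to CLPP was 1.43 ± 0.119 and 1.68 ± 0.0205, and LONP1 to CLPP was 3.42 ± 0.176 and 2.80 ± 0.187. On the log2 scale these 3 ratios differed by 0.27, 0.24 and -0.29. With the GC and length offset, an alternative added after the data were seen, the difference was 0.40 for CLPX to CLPP and turned from -0.09 to 0.09 for HSPD1 to HSPE1.

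The inner membrane ratios moved most. AFG3L2 to YME1L1 was 0.405 ± 0.00397 in WT and 0.303 ± 0.00628 in ΔTUT4/7, a difference of -0.42 on the log2 scale. SPG7 encodes paraplegin, which forms mixed m-AAA complexes with AFG3L2, and its mRNA fell from 115 ± 8.82 to 94.1 ± 0.287 CPM (log2 fold change -0.29 ± 0.05, adjusted p 9.10e-05 in edgeR). AFG3L2 to SPG7 was 0.531, 0.648 and 0.570 in the WT libraries and 1.07 in each ΔTUT4/7 library, a log2 difference of 0.88. Per kilobase of exon, SPG7 had 3.21 ± 0.247 CPM per kb in WT and 2.63 ± 0.00802 in ΔTUT4/7, below AFG3L2 in both groups. This order rests on a summed exon length of 35761 bases for SPG7 against 7133 for AFG3L2. In CPM, SPG7 stood above AFG3L2 in WT (115 and 66.7), so which gene had the higher level cannot be told. With the GC and length offset the change of SPG7 was -0.19.

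**Figure D4:**
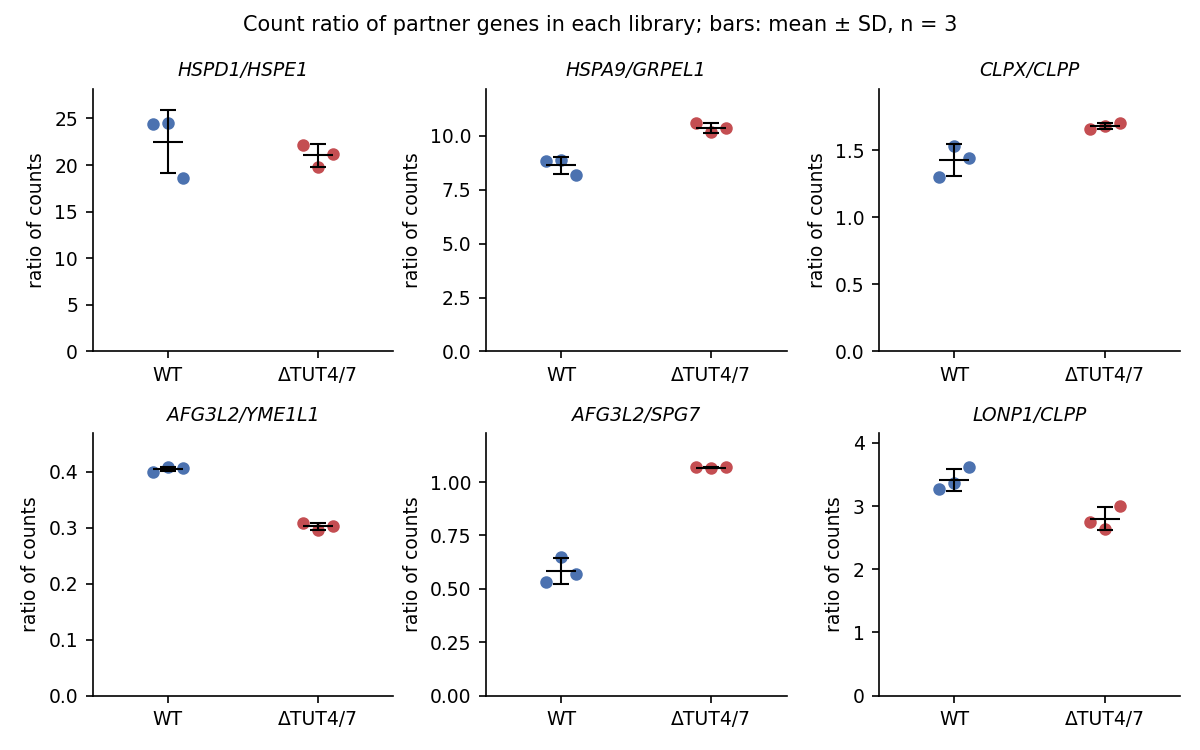
Ratio of the counts of partner genes in each of 3 WT and 3 ΔTUT4/7 libraries, on linear axes from 0, with mean ± SD. HSPD1/HSPE1, without pseudogene rows, overlaps between the groups (22.5 and 21.1), and the other 5 ratios are apart, most of all AFG3L2/SPG7 (0.583 and 1.07).

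The members were set beside 72 other genes of mitochondrial import, proteolysis and upkeep, all tested. Of these, 44 were higher, 14 lower and 14 not called, with a median log2 fold change of 0.39. That is 61.1% higher and 19.4% lower, against the 28.6% and 29.0% of all tested genes and the 39.2% and 31.7% at a mean count of at least 50. Lists are described by their counts and medians, with no test of the list. Like the members, they were chosen with earlier results of these data known.

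Among 8 co-chaperones of mtHSP70 and parts of its import motor, 6 were higher and 1 lower (median 0.40). DNLZ, a zinc finger protein that keeps mtHSP70 soluble, rose by 1.48 ± 0.22 and DNAJC15, a J-domain protein, by 1.10 ± 0.32, both from low levels (1.08 and 0.646 CPM in WT). In limma, where a pseudocount of 1 is added, their changes were 0.86 and 0.47. GRPEL2, the paralog of GRPEL1, rose by only 0.19 ± 0.05, a call lost under library-size scaling and in limma (0.07 in both). TIMM44, which tethers mtHSP70 to the import channel, fell by 0.40 ± 0.06 on the log2 scale. Of 13 genes of the TOM and TIM23 channels, 8 were higher and 1 lower (median 0.34). TOMM40, the outer membrane pore, rose by 1.34 ± 0.05 and TIMM23, the inner membrane pore, by 1.17 ± 0.06, although TIMM23 has a near-identical copy that makes its count uncertain. ROMO1, a small TIM23 subunit, had a change of -0.03 ± 0.12 (adjusted p 0.829), and was called lower with the GC and length offset (-0.41). TOMM20, a receptor for presequences, fell from 643 ± 30.3 to 369 ± 23.1 CPM (-0.80 ± 0.05). Of 8 small TIM and TIM22 genes, 4 were higher and 1 lower (50% and 12.5%, median 0.30). Among all genes with at least 50 counts on average, 39.2% were higher and 31.7% lower. TIMM10 rose by 1.53 ± 0.09 and TIMM13 by 0.73 ± 0.07, both chaperones of the intermembrane space. With the GC and length offset, TIMM13 rose by 0.43. TIMM9 had a change of 0.04 ± 0.09 (adjusted p 0.749), and TIMM29 one of -0.28 ± 0.11, a call lost in DESeq2 and without WT replicate 3 or any 1 ΔTUT4/7 library, and -0.51 with the GC and length offset.

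Of 13 other mitochondrial proteases and peptidases, 6 were higher and 5 lower (46.2% and 38.5%, median 0.06). These shares lay near the 39.2% and 31.7% of all genes with at least 50 counts on average. OMA1, the stress-activated protease that cuts OPA1 and DELE1, rose by 0.90 ± 0.06 and PARL, the rhomboid protease of the inner membrane, by 0.65 ± 0.08. XPNPEP3, an aminopeptidase, fell by 0.65 ± 0.05 on the log2 scale. IMMP2L, a subunit of the inner membrane signal peptidase, fell from 6.52 ± 1.05 to 3.00 ± 0.299 CPM (-1.13 ± 0.16). Of 8 genes for the disaggregase CLPB, other AAA proteins and inner membrane scaffolds, 7 were higher and none lower (median 0.65). MAIP1, an assembly partner of m-AAA subunits, rose by 0.98 ± 0.12, and PHB, which encodes a prohibitin of the scaffold around the m-AAA protease, by 0.96 ± 0.05. BCS1L, an AAA protein needed for respiratory complex III, rose by 0.42 ± 0.07 (0.27 with the GC and length offset), and AFG1L had a change of 0.14 ± 0.10 (adjusted p 0.247). Of 14 genes for the TCA cycle and pyruvate dehydrogenase, glutamate dehydrogenase, VDAC channels and TFAM, 11 were higher and 3 lower (median 0.52). SDHA, which has near-identical copies, rose by 0.96 ± 0.04 and VDAC2 by 0.72 ± 0.05, and IDH3A and DLD fell by 0.16 ± 0.05 and 0.27 ± 0.05 on the log2 scale. Under library-size scaling IDH3A fell by 0.28. Enzymes and channels outside folding and proteolysis were thus also among the higher genes.

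Of 8 factors that carry mitochondrial or heat stress signals, 2 were higher and 3 lower (25% and 37.5%, median -0.13). The shares were 28.6% and 29.0% over all tested genes. They were 39.2% and 31.7% over genes with at least 50 counts on average, to which all 8 belong. HSF1, the main heat shock transcription factor, rose from 34.4 ± 3.00 to 50.7 ± 3.69 CPM (0.56 ± 0.07, and 0.35 with the GC and length offset), while HSF2 had a change of -0.01 ± 0.06 (adjusted p 0.860). ATF4, the effector of the integrated stress response, fell from 602 ± 12.6 to 474 ± 3.90 CPM (-0.35 ± 0.04, and -0.54 with the GC and length offset). DELE1, which relays mitochondrial stress to the kinase HRI, fell by 0.36 ± 0.07 on the log2 scale. EIF2AK1, which encodes HRI, had a change of 0.13 ± 0.04 that was called, a call lost under library-size scaling, in limma, with a minimum mean count of 50, with the GC and length offset and without WT replicate 1 or ΔTUT4/7 replicate 3. CEBPB had a change of -0.40 ± 0.15 (-0.75 with the GC and length offset), and its call was lost in DESeq2 and without WT replicate 2 or 3 or ΔTUT4/7 replicate 1 or 3. ATF5 (0.26 ± 0.15, adjusted p 0.170) and DDIT3 (-0.25 ± 0.11, adjusted p 0.0664), factors tied to the mitochondrial unfolded protein response, were not called. Without WT replicate 3 or ΔTUT4/7 replicate 3, ATF5 was called higher (0.41 and 0.39). DDIT3 was called lower under library-size scaling, in limma, with a minimum mean count of 50 and with the GC and length offset.

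**Figure D5:**
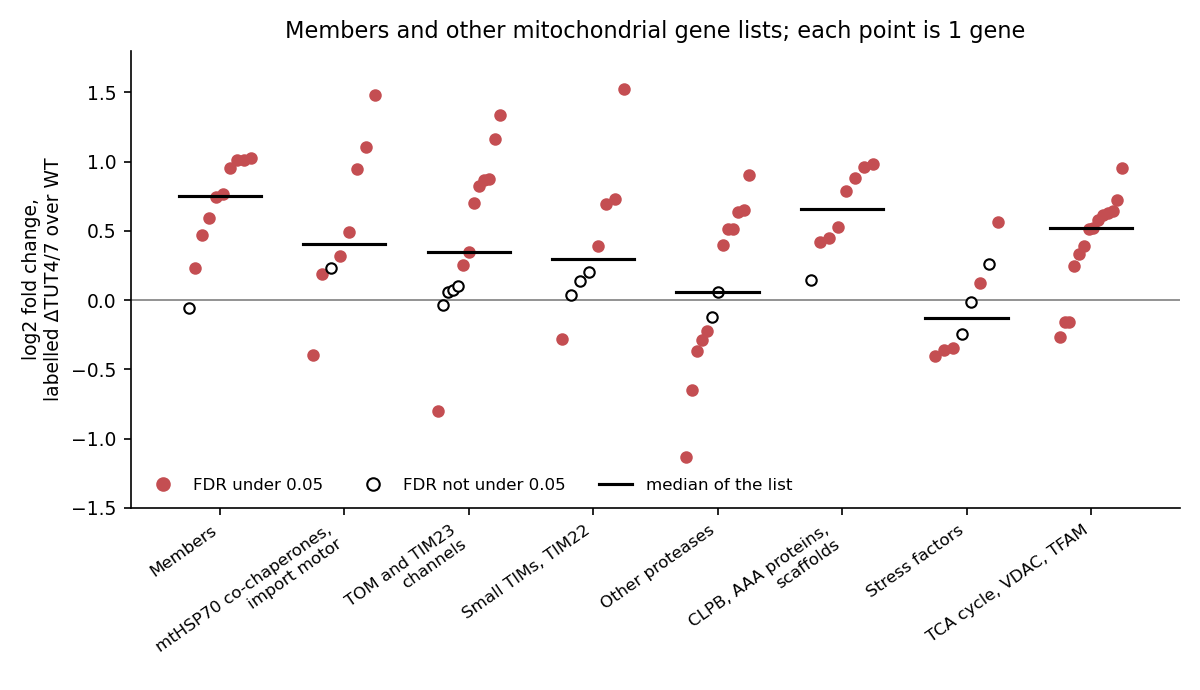
Log2 fold change (ΔTUT4/7 over WT) of each tested gene in the 10 members and 7 other lists, filled where the FDR was under 0.05, with a line at each list's median. Medians run from -0.13 for the stress factors to 0.75 for the members, with 0.06 for other proteases.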

How the data were processed

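RNA-seq libraries of 3 WT and 3 ΔTUT4/7 cultures of HEK 293T cells were analysed. The authors aligned reads to hg38 with STAR 2.7.3a and assigned them to Ensembl genes in Partek Flow 10.0.22, and deposited estimated counts per gene, which share reads among similar genes by an expectation-maximisation model and need not be whole. A second deposited table holds the authors' own comparison (p-values, ratios, fold changes and group means) and was not used.

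Estimated counts were rounded. Genes with a largest count above 12 were kept, 23952 of 30270. They were tested with edgeR 4.0.16 (R 4.3.3; TMM scaling, robust quasi-likelihood test, group as only term), with Benjamini-Hochberg adjustment over every kept gene and calls at an FDR under 0.05. All adjusted p-values of genes come from this test unless another is named, and the SE of a log2 fold change was derived from its F statistic. On data simulated for 22992 genes, 85.0% of 200 genes changed 2-fold were recovered and 0.118% of unchanged genes were called. In the real data 57.7% of tested genes were called, so these rates need not hold for this comparison. Alternatives used DESeq2 1.42.0, limma 3.58.1, other scalings and filters, GC and exon length from GENCODE on hg38 as an offset, and each library left out. Gene ends are the file's stop less 1 base.

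The members and lists were chosen with earlier results of these data known, and the motifs after the promoter sequences were viewed. Named are TUT4, TUT7, SPG7, all members, the stress factors, the 2 highest and 2 lowest log2 fold changes of each other list, and rows sharing sequence with a member at a mean count of 10 or more. TUBB6, MASTL, DNASE1, AC006111.2, RPL36 and MOB4 overlap members. PHB1 of the lists is PHB in the table. No 2 libraries agreed within sampling noise (chi-square per degree of freedom at least 2.33). Floors cover counting error only.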

Additional observations from a re-analysis of the deposited data

How the results depend on the processing

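Over 16 alternatives with a test, HSPD1, HSPE1, HSPA9, TRAP1, GRPEL1, CLPX, AFG3L2 and YME1L1 were called higher in every one. Their log2 fold changes ranged from 0.84 to 0.98 for HSPD1, 0.87 to 1.14 for HSPE1 and 0.34 to 0.49 for CLPX. CLPP was called in 12 of the 16. The number of lower members was 0, and 1 (LONP1) under library-size scaling, in limma on log2(CPM + 1), with a minimum mean count of 50 and with the GC and length offset, with and without the replicate block. Library-size scaling moved the median of all genes from -0.02 to -0.13 and that under the GC and length offset was -0.11. In genes not called, the sign of TIMM9 changed under library-size scaling (-0.077), in limma (-0.070), with a minimum mean count of 50 (-0.026) and with the GC and length offset (-0.064, and -0.058 with the replicate block). With each library left out in turn, changes ranged from -0.069 to 0.119 for TIMM9, from -0.113 to 0.055 for ROMO1 and from -0.068 to 0.038 for HSF2. The count of members called at 2-fold or more was 3, and 0 under library-size scaling, in limma and with a minimum mean count of 50, and it ranged from 1 to 3 with each library left out. The HSPD1 to HSPE1 log2 ratio difference became 0.095 with the GC and length offset. Both of these checks were chosen after seeing the data. The causes were not tested. With pseudogene rows added, levels per kb in WT were 115 for HSPD1, 38.0 for HSPE1 and 39.2 for HSPA9, by construction.

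For same-numbered libraries, the correlations of their deviations from the group means were 0.05, -0.01 and -0.02, and not every library correlated best with its own number. With so few libraries per group, whether same-numbered libraries shared a culture day or preparation cannot be told. With the replicate number as a block, 9 members were higher, 0 were lower and 13678 genes were called, against 13813 without it.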

Other observations

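Pseudogene rows of the members did not all move with their parent genes. HSPD1P1 (105 ± 2.76 to 201 ± 13.3 CPM, log2 fold change 0.93 ± 0.05), HSPD1P4 (0.86 ± 0.06) and HSPA9P1 (1.04 ± 0.09) had fold changes close to those of HSPD1 and HSPA9. HSPD1P11 went the other way, from 5.63 ± 1.12 CPM in WT to 2.00 ± 0.250 CPM in ΔTUT4/7 (-1.49 ± 0.19, adjusted p 7.02e-07 in edgeR). HSPE1P11 had a change of -0.77 ± 0.33 (adjusted p 0.0549), against 1.02 ± 0.10 for HSPE1, and HSPE1P2 rose by 0.60 ± 0.20. HSPD1P5 (1.18 ± 0.39), HSPD1P6 (1.03 ± 0.31) and AFG3L2P1 (0.63 ± 0.23) were called higher. HSPE1P4 (1.02 ± 0.52), HSPD1P12 (0.51 ± 0.73), HSPD1P3 (0.05 ± 0.38), HSPE1P13 (0.03 ± 0.38) and HSPE1P21 (-0.85 ± 0.52) were not called.

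MOB4 (chromosome 2, 197515571 to 197553699), which overlaps the upstream end of HSPD1 on the opposite strand and follows HSPE1 on the same strand, went from 73.7 ± 3.18 to 77.5 ± 2.72 CPM. Its log2 fold change was 0.07 ± 0.05 (adjusted p 0.242 in edgeR), beside roughly doubled HSPD1 and HSPE1.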
